A study of Mus musculus with 6 samples.

Results

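Pancreatic islets carry receptors for gut hormones, fatty acids, neurotransmitters and pituitary hormones, and 10 of these receptor genes were examined in islets from mice with short telomeres. They were Glp1r, Gipr, Gcgr, Ffar1, Gpr119, Gpr120, Chrm3, Adra2a, Prlr and Ghr. A receptor was taken as measured if a probe of the array is listed for that gene and no other, and 8 of the 10 were measured, among 20204 genes with a probe of their own. Gpr120 is listed under its current symbol Ffar4, and no own probe is listed for Adra2a, the noradrenaline receptor that inhibits insulin release, or for Prlr, the prolactin receptor of β-cells, so neither was analysed here. Each of the 8 has 1 probe, a probe being a transcript cluster whose log2 signal summarizes its exon probes. The islets came from 3 mTR-/-G4 and 3 wild-type mice, all of them male C57BL/6 animals of 15 months, with 1 Affymetrix exon array for each sample, lettered a to c in each genotype. Islets were isolated from the pancreas by collagenase digestion and used whole. mTR-/-G4 mice lack the telomerase RNA in every cell and belong to the fourth generation bred without it. All 3 mTR-/-G4 samples thus carry both the null allele and short telomeres, which cannot be told apart in these arrays. Each sample was taken as 1 mouse, since the study counts its array samples as mice.

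Glucose sets off insulin release, and the receptors described here adjust its size. Glp1r, Gipr, Gcgr and Gpr119 couple to Gs and raise cyclic AMP, which amplifies exocytosis. Ffar1 and Chrm3 couple mainly to Gq, which activates phospholipase C and releases Ca2+ from the endoplasmic reticulum, and Gpr120 can use the same route. Ghr has no G protein and signals through the kinase JAK2 and the transcription factor STAT5.

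In islets with short telomeres, 1 of the 8 receptors fell, none rose and 7 did not pass the test. The receptor that fell was Chrm3, the M3 muscarinic receptor, through which acetylcholine from parasympathetic nerves enhances insulin release. Its signal in mTR-/-G4 islets was 0.481 times that in wild-type islets (95% interval 0.328 to 0.705, n = 3 each). The threshold was that of the study, a change of more than 1.5-fold together with a p under 0.05 before adjustment, and p came from limma. Of all 34502 probes, 3.61% were lower and 2.62% higher by this rule, or 6.23% either way, and these shares are the background for the counts of receptors. They include probes with no gene symbol or several. With 1 probe for each of 20204 genes, 345 were lower and 411 higher. After adjustment over all probes 0 of the 8 receptors had a p under 0.05, as against 0.0029% of probes, and before it 1 receptor did, as against 23.0% of probes. The methods' t-test, that which the study names, again took Chrm3 alone past the threshold, where 2.47% of all probes were lower and 3.94% changed either way. The median log2 difference was -0.09 over the 8 receptors and 0.10 over all probes. After centring each array on its median it was -0.19 over the receptors and 0.01 over all probes, but after quantile normalization the order turned, with 0.13 over the receptors and 0.01 over all probes.

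**Figure D1:**
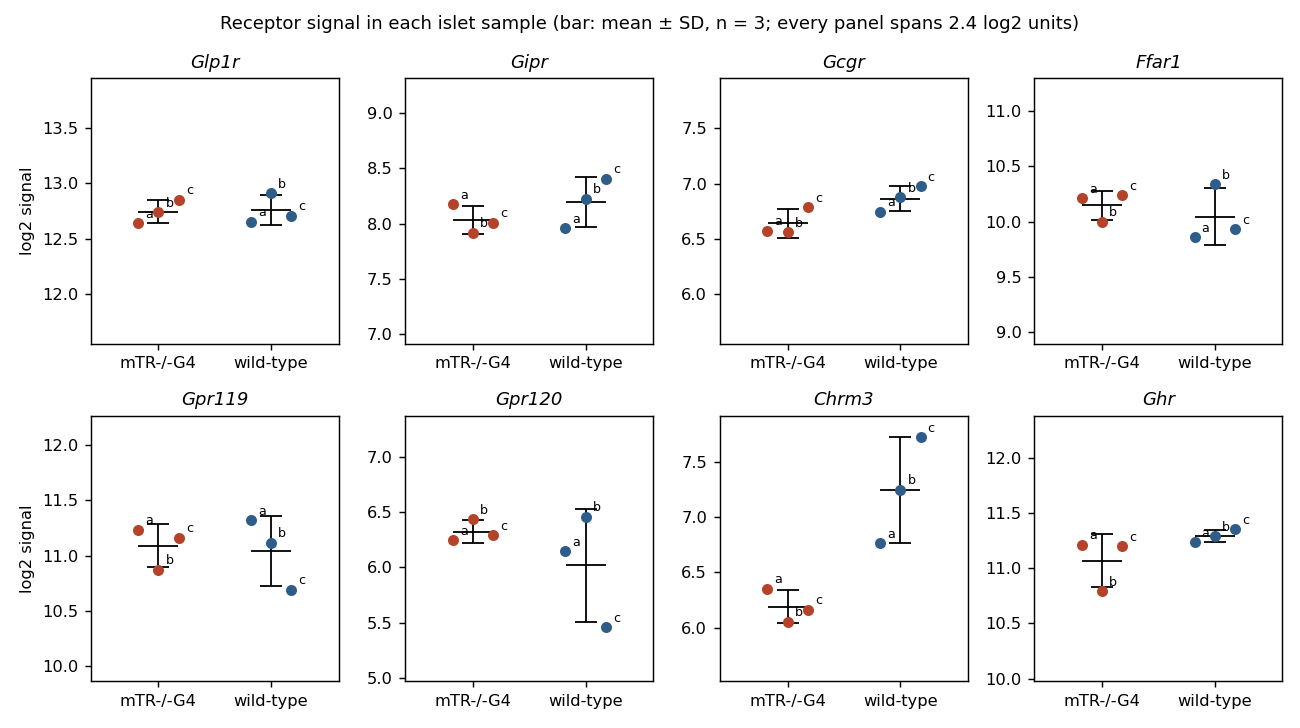
Log2 signal of each of the 8 measured receptors (vertical axis) in the 3 mTR-/-G4 samples on the left and the 3 wild-type samples on the right of each panel, with points lettered by sample and black bars for the mean ± SD (n = 3). Every panel has the same span, and the Chrm3 points of mTR-/-G4 islets, 6.06 to 6.35, all lie under those of wild-type islets, 6.77 to 7.72.

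The arrays differed in ways that bear on all of these values. The interquartile range of the log2 signal over all probes was 2.35 ± 0.27 (SD, n = 3) in mTR-/-G4 and 2.69 ± 0.08 (SD, n = 3) in wild-type samples. A two-sided exact permutation test gave p = 0.1, and 3 samples against 3 cannot give less. The narrowest was mTR-/-G4 b at 2.05. This sample held the lowest mTR-/-G4 value of 6 of the 8 receptors, and wild-type a, with an interquartile range of 2.66, held the lowest wild-type value of 6 as well. Because of the range, each difference is given also after quantile normalization, which gives the 6 arrays 1 distribution, and after each array was centred on its median. Centring moved the median log2 difference of all probes to 0.01, from 0.10 as deposited, and with it 523 probes were higher and 1695 lower, against 904 and 1244 as deposited. To judge which receptors were dim, 905 probes of olfactory receptor genes, which islets are not known to use widely, served as a scale. All 48 values of the 8 receptors lay above 5.14, the 95th percentile of their means.

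Glp1r, the receptor of glucagon-like peptide 1 and the target of incretin drugs, was at 12.64, 12.74 and 12.85 (log2 signal, samples a to c) in mTR-/-G4 islets and at 12.65, 12.91 and 12.71 in wild-type islets. The genotypes overlapped almost fully, and no sample stood apart. The log2 difference was -0.01 (SE 0.12), with a 95% interval from -0.29 to 0.26, and it was 0.19 after quantile normalization and -0.11 after centring. Its interval lay within 1.5-fold in either direction under all 3 scalings, while its sign changed between them.

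Gipr, the receptor of the other incretin, glucose-dependent insulinotropic polypeptide, was at 8.17, 7.92 and 8.01 in mTR-/-G4 islets and at 7.96, 8.22 and 8.41 in wild-type islets. The wild-type values ranged more widely, and mTR-/-G4 a and c lay within their range. Its log2 difference was -0.16 (SE 0.14, unadjusted p = 0.290 from limma), with a 95% interval from -0.50 to 0.17, and it was -0.03 after quantile normalization and -0.26 after centring.

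Gcgr, the glucagon receptor, through which glucagon of neighbouring α-cells acts on β-cells, was at 6.57, 6.56 and 6.79 in mTR-/-G4 islets and at 6.74, 6.88 and 6.97 in wild-type islets. Only mTR-/-G4 c reached into the wild-type range. The log2 difference was -0.23 (SE 0.12) with an unadjusted p of 0.0906 from limma. It was -0.12 after quantile normalization and -0.32 after centring, where the unadjusted p of limma was 0.0429. The fold change remained under 1.5 in each case.

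Gpr119, which binds lipid amides such as oleoylethanolamide, was at 11.24, 10.87 and 11.16 in mTR-/-G4 islets and at 11.32, 11.12 and 10.69 in wild-type islets. The lowest value was that of wild-type c and the highest that of wild-type a, so that the mTR-/-G4 samples lay wholly inside the wild-type range. The log2 difference was 0.05 (SE 0.18), with a 95% interval from -0.39 to 0.48, and it was 0.32 after quantile normalization and -0.05 after centring. Of the receptors that raise cyclic AMP, 0 of 4 passed the threshold by limma or by the methods' t-test. Of all probes, 6.23% and 3.94% passed by these tests. For 0 of 4 was the unadjusted p of limma under 0.05 as deposited, as against 23.0% of all probes. A count of 0 among 4 is too small to be told from these shares.

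Ffar1, the receptor of long-chain fatty acids also called GPR40, was at 10.21, 9.998 and 10.24 in mTR-/-G4 islets and at 9.86, 10.34 and 9.93 in wild-type islets. Wild-type b was the highest of the 6 and the other wild-type samples the lowest. The log2 difference was 0.11 (SE 0.15, unadjusted p = 0.514 from limma), with a 95% interval from -0.26 to 0.47, and it was 0.27 after quantile normalization and 0.01 after centring.

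Gpr120, a second receptor of long-chain fatty acids, was at 6.24, 6.44 and 6.29 in mTR-/-G4 islets and at 6.14, 6.46 and 5.46 in wild-type islets. The range was 0.19 among mTR-/-G4 samples and 1.003 among wild-type samples, where wild-type c lay well under the others. Its log2 difference of 0.30 (SE 0.24) had the widest interval of the receptors that did not pass, from -0.27 to 0.88, which includes a change above 1.5-fold. Without wild-type c the difference was 0.02, and without wild-type b it was 0.52. Quantile normalization gave 0.37 and centring 0.21.

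Ghr, the growth hormone receptor, was at 11.21, 10.79 and 11.20 in mTR-/-G4 islets and at 11.23, 11.29 and 11.35 in wild-type islets. All 3 mTR-/-G4 values were under the wild-type ones, by a narrow margin except in mTR-/-G4 b. The log2 difference was -0.22 (SE 0.14), with an unadjusted p of 0.152 from limma. It was -0.08 without mTR-/-G4 b, -0.32 after centring and 0.06 after quantile normalization, where the genotypes overlapped. With Chrm3, Ghr was 1 of 2 receptors of the 8 whose genotypes did not overlap, as was the case for 35.2% of all probes, or 11.7% with mTR-/-G4 lower. After quantile normalization Chrm3 was the 1 that remained, against 25.8% of all probes.

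**Figure D2:**
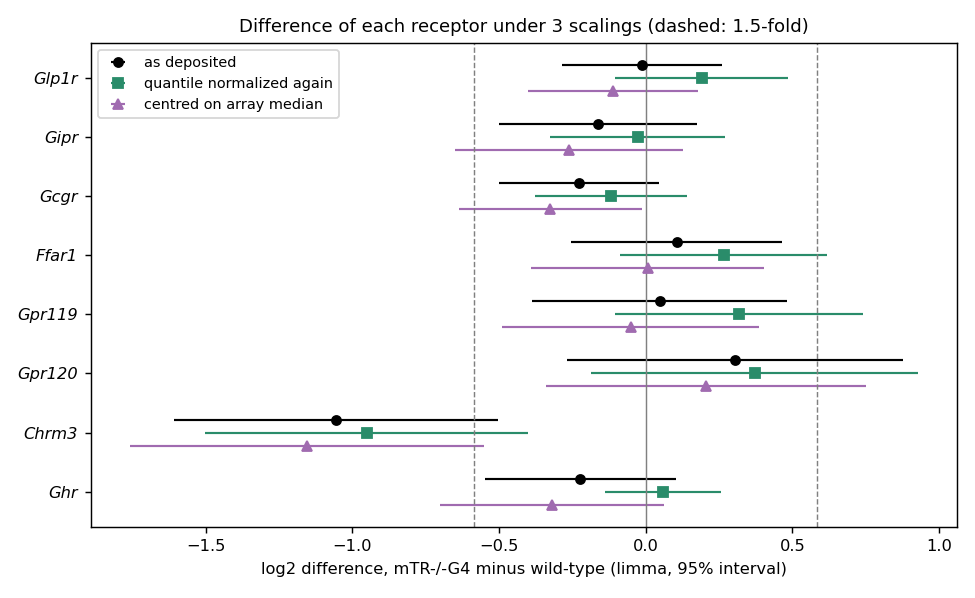
Log2 difference of each receptor, mTR-/-G4 minus wild-type (horizontal axis), with its 95% interval from limma, as deposited (black), after quantile normalization again (green) and with arrays centred on their median (purple). Dashed lines mark 1.5-fold in either direction, and Chrm3, at -1.06, -0.95 and -1.15, lies beyond the lower line under each scaling.

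The intervals of the receptors that did not pass limit the change that these arrays allow. For 6 of the 8 receptors the 95% interval lay within 1.5-fold in either direction, as for 56.6% of all probes. The 6 were Glp1r, Gipr, Gcgr, Ffar1, Gpr119 and Ghr. After quantile normalization 4 receptors, Glp1r, Gipr, Gcgr and Ghr, kept within this limit, and after centring 3, Glp1r, Ffar1 and Gpr119.

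Chrm3 was at 6.35, 6.06 and 6.16 (log2 signal) in mTR-/-G4 islets and at 6.77, 7.25 and 7.72 in wild-type islets. The mTR-/-G4 samples lay close together and all wild-type samples were higher, with a spread of 0.15 (SD) in mTR-/-G4 and 0.48 in wild-type islets. The log2 difference was -1.06 (SE 0.23), with an unadjusted p of 0.00262 and an adjusted p of 0.116 from limma. The two-sided exact permutation test gave 0.1, its lowest possible p. In whole islets, fewer cells that carry a receptor and less of its RNA per cell cannot be told apart.

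The call of Chrm3 was kept in 16 of 17 alternatives, but several of these could not move its difference. Chrm3 has 1 own probe, so the mean of own probes and 1 probe per gene kept its signal. The methods' t-test, the filter on dim probes, the trended prior, the letter block and the 2-fold threshold also left its difference at -1.06. These could change only its p or the threshold. The call was kept whichever sample was left out, with log2 differences from -1.30 without wild-type a to -0.82 without wild-type c, and at a 2-fold threshold. It was lost with the mean signal of acinar cell markers as a covariate, where the difference was -0.54 (SE 0.48) with a 95% interval from -1.70 to 0.62.

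**Figure D3:**
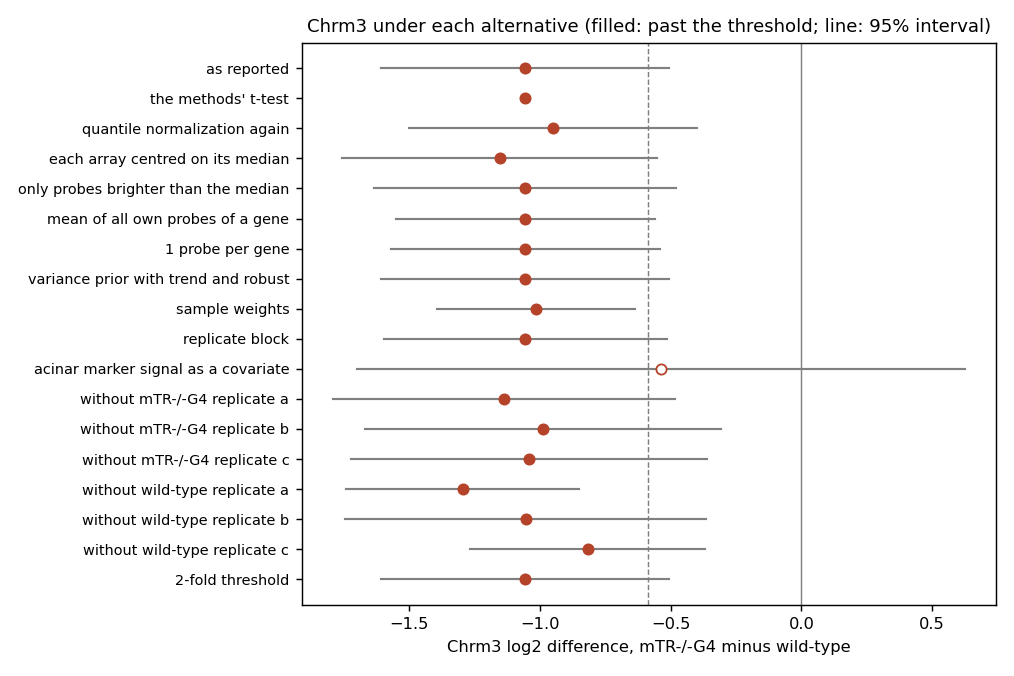
Log2 difference of Chrm3, mTR-/-G4 minus wild-type (horizontal axis), as reported and under each of the 17 alternatives, with filled points past the threshold in use, an open point that did not pass, and lines for the 95% interval of limma, which the row of the methods' t-test lacks. The dashed line marks 1.5-fold lower, and the open point is the fit with the acinar marker signal as a covariate, at -0.54.

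The mean signal of acinar cell markers moved with genotype, and values of this and other cell types stand beside those of Chrm3. The mean log2 signal of 20 measured acinar cell markers, of 25 listed, was 9.96, 9.34 and 8.99 in mTR-/-G4 and 8.47, 7.64 and 7.53 in wild-type samples. These means did not overlap, with a difference of 1.55 (exact permutation p = 0.1), and 17 of the 20 markers rose. Bhlha15, a transcription factor of secretory cells, fell by 0.60 on the log2 scale but not past the threshold after quantile normalization, and Ptf1a and Nr5a2, both dim, did not pass. The other 18 lay above the level of olfactory receptor probes. Acinar cells of the exocrine pancreas, too, use Chrm3. Chrm3 was thus lower in the samples with more acinar signal, and among wild-type samples the one with the most acinar signal, wild-type a, had the least Chrm3. Among mTR-/-G4 samples, mTR-/-G4 a had the most of both. The part of acinar cells in the difference was not tested beyond the covariate, which does not overlap between genotypes and widens the SE of Chrm3 to 0.48.

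The mean of 11 endothelial markers was 7.55, 7.28 and 7.29 in mTR-/-G4 and 8.11, 7.78 and 7.47 in wild-type samples (difference -0.41, exact permutation p = 0.2). These means overlapped, and 3 of the markers, Kdr, Flt1 and Tek, fell. Kdr, at -0.53, did not pass after quantile normalization. Their part in the Chrm3 difference was not tested. The 11 measured β-cell markers averaged 11.17, 11.14 and 11.22 in mTR-/-G4 and 11.23, 11.46 and 11.37 in wild-type samples. Like the acinar means, these did not overlap (exact permutation p = 0.1), but narrowly, with mTR-/-G4 c at 11.222 and wild-type a at 11.23. By limma 0 of the 11 passed the threshold, and 3, Nkx6-1, G6pc2 and Abcc8, were lower at an unadjusted p under 0.05. Of all probes, 8.85% were lower at that p. After quantile normalization 0 of the 11 were. The mean difference of the 11, -0.18, became 0.01 after quantile normalization. The α-cell and the δ- and PP-cell lists had differences of 0.17 and -0.04, and all of their 10 measured markers were above the olfactory receptor level, as were all β-cell markers. The mean of 6 duct markers was higher by 0.69 (exact permutation p = 0.2), with overlapping genotypes and a median difference of 0.24. Of the 6, Tff2 and Muc1 rose, by 2.38 and 0.98 on the log2 scale, the other 4 did not pass, and 3 were not above the olfactory receptor level. Muc1 overlapped between genotypes and did not pass after centring (unadjusted p = 0.0548 from limma). The leukocyte, stromal, Schwann cell and adipocyte lists differed by 0.04, 0.06, 0.15 and 0.08.

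**Figure D4:**
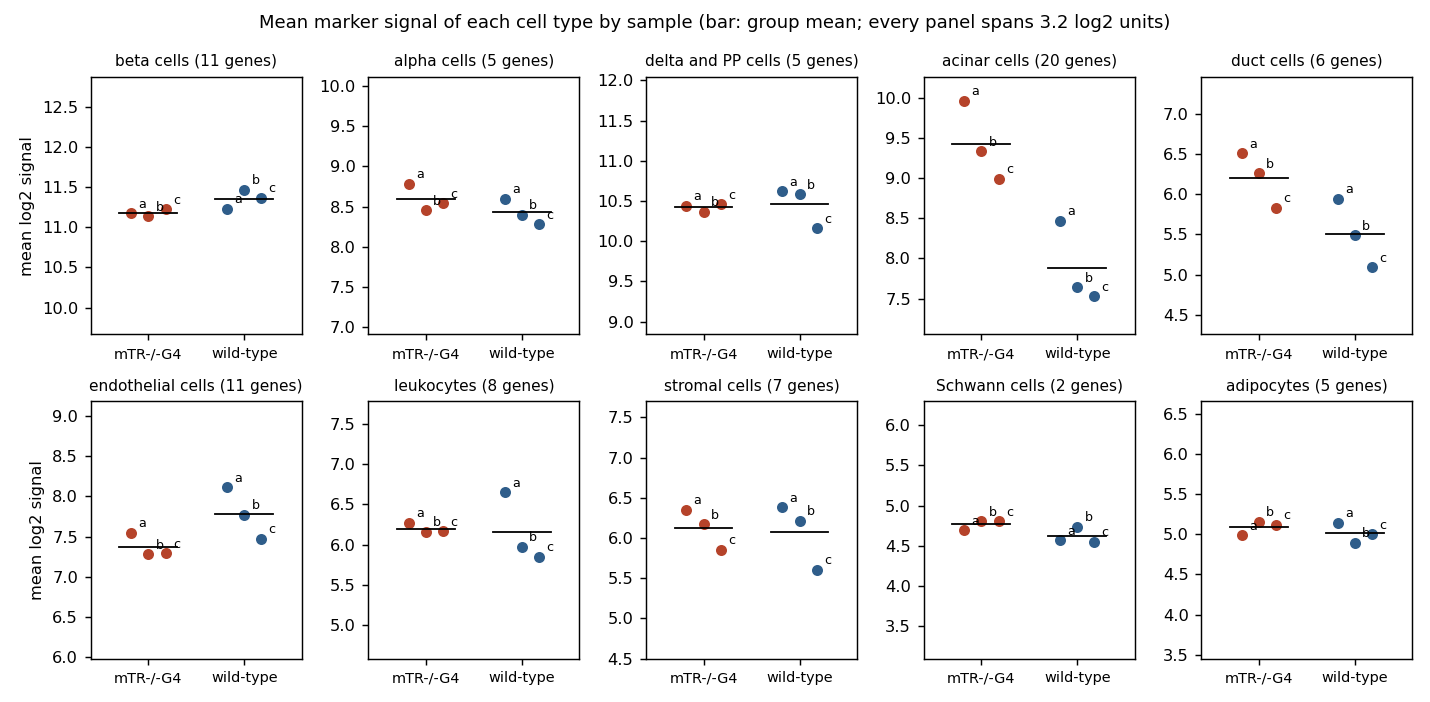
Mean log2 signal of the markers of 10 cell type lists (vertical axis) in the 3 mTR-/-G4 samples on the left and the 3 wild-type samples on the right of each panel, with points lettered by sample and black bars for group means. The acinar means of mTR-/-G4 samples, 8.99 to 9.96, lie above those of wild-type samples, 7.53 to 8.47, with no overlap.

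Chrm3 was compared with its relatives and with the signalling chain that it drives. The other muscarinic receptors, Chrm1, Chrm2, Chrm4 and Chrm5, had log2 differences of 0.41, -0.20, 0.38 and 0.33, and none passed the threshold as deposited, while Chrm4 passed without wild-type b, at 0.60. Chrm1 and Chrm5 were not above the olfactory receptor level in mean. Of 10 measured genes of the Gq arm, of 14 listed, 0 passed the threshold by limma. Of the 10, 4 had an unadjusted p under 0.05, all of them lower, where 8.85% of all probes were lower with limma. With the methods' t-test 4 of the 10 were again lower at that p, against 7.38% of all probes, and after quantile normalization 3 were, without Plcb4. The median log2 difference of the 10 was -0.25. Of the 10, 8 were above the olfactory receptor level, while the shares of all probes include dim ones. Past the threshold, 1085 probes were lower among those brighter than the median and 1244 among all. The share of bright probes lower at that p was not taken, so the 4 cannot be set against it. The 4 genes were Gnaq, Plcb1, Plcb4 and Itpr2, and they are named here after their values were seen.

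Gnaq, the α subunit of Gq itself, was at 6.43, 6.27 and 6.33 in mTR-/-G4 islets and at 6.78, 6.92 and 7.03 in wild-type islets. The genotypes were clearly apart, and the log2 difference of -0.57 (SE 0.11, adjusted p = 0.0995 from limma) was just short of 1.5-fold. Plcb1, a phospholipase C that Gq activates, was at 6.20, 5.94 and 6.12 in mTR-/-G4 and at 6.51, 6.57 and 6.80 in wild-type islets, with no overlap and a log2 difference of -0.54 (SE 0.12, adjusted p = 0.120). Both passed the threshold after centring, at -0.67 and -0.64, and with mTR-/-G4 a or wild-type a left out. Neither did after quantile normalization, at -0.47 and -0.46.

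Itpr2, a receptor of inositol trisphosphate that releases Ca2+ from the endoplasmic reticulum, had a log2 difference of -0.40 (SE 0.13), and Plcb4, another phospholipase C, -0.28 (SE 0.09). The rest of the chain lay on both sides of 0. Gna11, a close relative of Gnaq that couples to the same receptors, had a log2 difference of 0.22 (SE 0.11, unadjusted p = 0.0825), and its genotypes did not overlap either, with mTR-/-G4 samples above. Itpr3 was at 0.14 (SE 0.13), Plcb3 at -0.22 (SE 0.11) and Dgka, a kinase that removes the diacylglycerol made by phospholipase C, at -0.34 (SE 0.15, unadjusted p = 0.0583 from limma).

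The other arms held no measured gene past the threshold. Over 10 lists of ligands, signalling genes and related receptors, 108 of 125 genes were measured, and 0 of them passed by limma or by the methods' t-test. An unadjusted p under 0.05 was found for 24 genes with limma and for 26 with the methods' t-test. The 24 are 22.2% of the genes measured, against 23.0% of all probes. Of all probes, 14.2% were higher and 8.85% lower at that p with limma, the background for the counts of each list below. Of the 24, 14 were higher, and 12 of these were not above the olfactory receptor level, the exceptions being Gprc6a and Cntfr, while all 10 lower ones were above it. After quantile normalization, 4 of the 14 and 6 of the 10 still had a p under 0.05 in the same direction. The part of the narrower range of the mTR-/-G4 arrays in this split between dim and bright genes was not tested otherwise.

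In the cyclic AMP arm, 22 of 23 genes were measured. The gene left out, Rapgef4, has no own probe listed, and the study lists it as lower in mTR-/-G4 islets. The 22 had a median log2 difference of -0.05, and 3 had an unadjusted p under 0.05 as higher and 1 as lower. The 3 were the adenylyl cyclases Adcy1, Adcy5 and Adcy8, all dim. The lower one was Adcy9, another adenylyl cyclase, at 7.76, 7.73 and 7.76 in mTR-/-G4 and 8.05, 8.24 and 8.38 in wild-type islets (difference -0.48, SE 0.11). Gnas, the α subunit of Gs, was at -0.21 (SE 0.16) and Prkaca, a catalytic subunit of protein kinase A, at -0.15 (SE 0.16). Of 8 measured arrestins, receptor kinases and receptor activity modifying proteins, 0 passed by limma and in 0 was its unadjusted p under 0.05. The differences ran from -0.20 to 0.12, each from the brightest probe. Ramp1 has 2 own probes, neither above the olfactory receptor level in mean, and they did not behave alike. The brightest was at 0.12, while the mean of both was at 0.63 (unadjusted p = 0.00586 from limma), past the threshold.

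In the Gi arm, which Adra2a uses, all 12 genes were measured and 1 had an unadjusted p under 0.05. This was Gnao1, the α subunit of Go, at 8.74, 8.30 and 8.71 in mTR-/-G4 and 9.01, 9.14 and 9.34 in wild-type islets. The genotypes did not overlap, and the difference of -0.58 (SE 0.16, adjusted p = 0.140 from limma) was just short of 1.5-fold. It was -0.47 after quantile normalization and -0.68, past the threshold, after centring, and it also passed with mTR-/-G4 a, mTR-/-G4 c, wild-type a or wild-type b left out. In the JAK2-STAT5 arm of Ghr and Prlr, 11 of 11 genes were measured, with a median of 0.02. Stat5b had a log2 difference of -0.24 (SE 0.10) and Ptpn11, a phosphatase of this pathway, -0.32 (SE 0.11), each with an unadjusted p under 0.05, while Jak2 was at -0.09 (SE 0.12). Tph1 and Tph2, which make serotonin and respond to prolactin in β-cells of pregnant mice, were both dim, with differences of 0.13 and 0.16.

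Of the ligands, Gcg, which encodes glucagon and, in gut cells, glucagon-like peptide 1, was at 12.26, 11.70 and 12.14 in mTR-/-G4 and 12.33, 12.03 and 11.87 in wild-type islets (difference -0.05, SE 0.19). The genotypes overlapped. Gip, Prl and Gh, which encode ligands made outside the islet, averaged 4.74, 4.22 and 4.90 in mTR-/-G4 and 4.42, 4.03 and 4.57 in wild-type islets, all under the olfactory receptor level of 5.14. Chat, which makes acetylcholine, the ligand of Chrm3, was dim too, at a difference of 0.19 (SE 0.16). Igf1, an induced target of growth hormone, was at 5.77, 5.33 and 5.10 in mTR-/-G4 and 5.203, 4.98 and 4.50 in wild-type islets. Its difference of 0.50 (SE 0.23, unadjusted p = 0.0643 from limma) was the largest of the 6 genes listed with the ligands, with overlapping genotypes, and it passed the threshold without mTR-/-G4 c, at 0.65, and without wild-type a, at 0.66. Igf1 was itself near the olfactory receptor level, and its wild-type mean, 4.89, was under it.

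**Figure D5:**
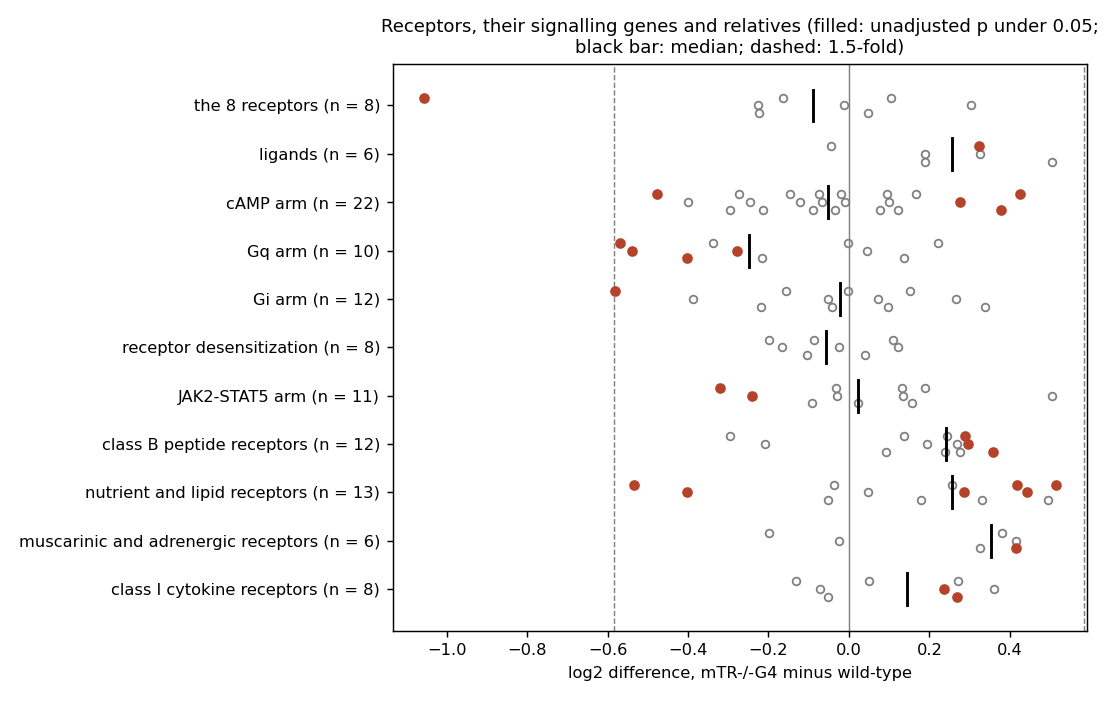
Log2 difference, mTR-/-G4 minus wild-type (horizontal axis), of the 8 receptors and of each measured gene of 10 lists (rows), with filled points for an unadjusted p under 0.05 from limma, open points for the others, black bars for medians and dashed lines for 1.5-fold. Chrm3 at -1.06 is the 1 point beyond the dashed lines, and the filled points of the Gq arm all lie on the lower side.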

How the data were processed

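The authors summarized the 6 exon arrays in Partek (version not given in the sources used here) with Robust Multichip Analysis, and the deposited values are log2 signals of 34502 probes. Coordinates were not used, and mm9 is the build in the submitters' processing notes. In the platform annotation, 25362 probes have 1 gene symbol, 2238 several and 6902 none listed. Gene symbols were looked up as written, then by the synonyms in a RefSeq gene table for assembly GRCm38.p6. The brightest probe listed for a gene alone stood for it, and each receptor had 1.

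Genotypes were compared with limma 3.58.1 in R 4.3.3 (lmFit and eBayes, all probes, no filter, prior degrees of freedom 3.14), with Benjamini-Hochberg adjustment over all probes. The fit was tested on simulated data. The receptors and lists were chosen with earlier results of these data known. All receptors were named, and of each list up to 4 genes past the threshold, the named ligands, and others singled out after their values were seen. Precision is limited by having 3 arrays in each genotype.

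The alternatives tried were each sample left out, the methods' t-test, median centring, quantile normalization, a filter on dim probes, 1 probe per gene, the mean of own probes, sample weights, a trended robust prior, an acinar covariate, the sample letter as a block and a 2-fold threshold. Adra2a and Prlr were not analysed here, nor were the study's other experiments.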

Additional observations from a re-analysis of the deposited data

How the results depend on the processing

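Chrm3 remained past the threshold in 16 of 17 alternatives, several of which left its difference at -1.06 by construction, as given above. With the acinar covariate its log2 difference was -0.54 and 0 receptors were lower. None of the other 7 receptors passed under any alternative, but the sign of small differences changed. Glp1r was at 0.19 after quantile normalization, 0.073 with sample weights, 0.27 with the acinar covariate and -0.067 to 0.063 with 1 sample left out. Gpr119 was at -0.051 after centring, -0.47 with the covariate and -0.13 to 0.19 with 1 sample left out. With the covariate Gipr was at 0.025 and Gcgr at 0.087, and after quantile normalization Ghr was at 0.06 and the mean of the β-cell markers differed by 0.013. The cause of these changes was not tested. Of all probes, 904 were higher as reported, against 507 by the methods' t-test, 523 after centring, 362 among brighter probes, 411 with 1 probe per gene, 145 at 2-fold and 577 (without mTR-/-G4 b) to 1833 (without mTR-/-G4 a) with 1 sample left out. As lower, 1244 probes passed, against 345 with 1 probe per gene and 478 at 2-fold. The counts among brighter probes and with 1 probe per gene come from fewer probes, 20204 in the latter. Of the 108 signalling genes and relatives, 0 passed as reported, 1 after quantile normalization (Gprc6a), 4 after centring (Gnaq, Plcb1, Gnao1 and Casr), 1 with the mean of own probes (Ramp1), 4 with sample weights (Adcy4, Ffar3, Gprc6a and Sucnr1), 13 with the covariate and 1 to 6 with 1 sample left out. Samples of the same letter did not deviate together (correlations 0.0429, -0.16 and 0.112), so the letters were not taken as pairs. With the letter as a replicate block, 1013 probes were higher and 1388 lower, and Chrm3 was at -1.06 and past the threshold. The 3 arrays per genotype limit every value.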

Other observations

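Among 13 other receptors of nutrients, bile acids and lipids, 0 passed the threshold by limma, and 4 had an unadjusted p under 0.05 as higher and 2 as lower. Of all probes, 14.2% were higher and 8.85% lower at that p. The largest differences of the 13 receptors at that p belonged to amino acid and calcium sensing receptors, named after their values were seen. Casr, the calcium-sensing receptor, was at 9.34, 9.86 and 9.77 (log2 signal) in mTR-/-G4 and 10.04, 10.39 and 10.14 in wild-type islets. The genotypes did not overlap, with a difference of -0.53 (SE 0.17, adjusted p = 0.167 from limma), -0.37 after quantile normalization and -0.63, past the threshold, after centring, and it also passed with mTR-/-G4 b, mTR-/-G4 c or wild-type a left out. Gprc6a, its relative that senses basic amino acids, was at 6.82, 6.64 and 6.94 in mTR-/-G4 and 6.12, 6.56 and 6.18 in wild-type islets. It was higher in all 3 mTR-/-G4 samples, with a difference of 0.51 (SE 0.15, adjusted p = 0.154), and it passed the threshold after quantile normalization at 0.61 and with mTR-/-G4 b or wild-type b left out. Ffar2, a receptor of short-chain fatty acids, had a difference of -0.40 (SE 0.14), and the other 3 with a p under 0.05, Gpr84, Gpr55 and Tas1r2, were dim. After quantile normalization Casr and Ffar2 no longer had a p under 0.05 (unadjusted p = 0.179 and 0.0836 from limma). Gpr84 and Tas1r2 lost it too, while Gprc6a and Gpr55 kept it. Of the 12 relatives of Glp1r, Gipr and Gcgr, 0 passed, and the 3 with an unadjusted p under 0.05, Glp2r, Crhr2 and Calcr, were higher and dim.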
